A study of Homo sapiens with 12 samples.

Results

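CASP10 and 7 further genes of the death receptor and inflammatory caspase pathways were followed through the knockdown of the transcription factor FOXA1 in prostate cancer cells. The 8 genes were CASP10, CASP8, CASP1, CASP4, TNFSF10, FAS, TNFRSF10A and TNFRSF10B, taken by gene name from tables that hold 60106 genes, and all 8 were found in every table. They were selected on their log2 changes and adjusted p-values for siFOXA1 against NSI in both lines, which were already known, so their levels and changes in that comparison are described without a test. The cells were PC3 and VCaP, both established lines grown from prostate cancer metastases. The groups were cells given a non-targeting control siRNA, called NSI, and cells given an siRNA to FOXA1, called siFOXA1, harvested after 72 hours, with 3 libraries in each of the 4 groups. The PC3 cells grew in RPMI-1640 and received 20 nM siRNA, and their libraries were made from polyadenylated RNA and counted without regard to strand. The VCaP cells grew in DMEM and received 40 nM, and their libraries were made from total RNA and counted on 1 strand. The effect of the line therefore cannot be told apart from that of the dose, the medium, the library kit and the use of strand. Nor can it be told apart from the depth of the knockdown, which was greater in VCaP. One siRNA condition against FOXA1 was used in each line, no separate cultures are named for the replicates, and the p-values measure the spread between these libraries, which may be technical.

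Death receptors start apoptosis from the cell surface. TNFSF10 encodes the ligand TRAIL, which binds the receptors encoded by TNFRSF10A and TNFRSF10B, while FAS encodes the receptor of Fas ligand. Engaged receptors gather the adaptor FADD and the initiator caspases encoded by CASP8 and CASP10, whose activity starts a cascade of proteolysis. CFLAR, which lies next to CASP10 and CASP8, encodes a relative of these caspases that lacks protease activity and limits their activation. CASP1 and CASP4 encode inflammatory caspases that cleave gasdermin D, the pore-forming protein of pyroptosis, and CASP1 also matures interleukin-1 beta. FOXA1 is a forkhead factor that opens chromatin in luminal prostate cells.

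Promoter sequences are shown because these members were higher together in at least 1 line and interferon-stimulated, STAT-bound and forkhead elements are the textbook elements searched for in such promoters. The RefSeq promoter table held 4 of the 8 genes, and TNFSF10, CASP8, FAS and CASP4 are given as the 250 bases before the start site, 5′ to 3′ on the strand of the gene, on GRCh38.p14, whereas the counts use GRCh37. Capitals mark a match to the interferon-stimulated response element core (GAAA and GAAA parted by any 2 bases), TTCNNNGAA (STAT-like) or GTAAACA (forkhead), each searched on both strands. CASP10, CASP1, TNFRSF10A and TNFRSF10B had no entry.
TNFSF10, chr3:172523431-172523680, minus strand: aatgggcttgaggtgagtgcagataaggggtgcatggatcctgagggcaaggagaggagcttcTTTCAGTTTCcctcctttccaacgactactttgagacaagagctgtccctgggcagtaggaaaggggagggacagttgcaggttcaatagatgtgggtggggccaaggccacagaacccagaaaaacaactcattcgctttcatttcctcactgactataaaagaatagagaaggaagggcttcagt
CASP8, chr2:201233213-201233462, plus strand: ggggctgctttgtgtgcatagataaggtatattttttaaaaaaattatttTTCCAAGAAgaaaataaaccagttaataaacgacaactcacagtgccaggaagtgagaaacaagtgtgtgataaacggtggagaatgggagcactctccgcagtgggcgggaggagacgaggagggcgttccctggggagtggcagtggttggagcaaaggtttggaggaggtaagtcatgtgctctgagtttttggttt
CASP4, chr11:104968575-104968824, minus strand: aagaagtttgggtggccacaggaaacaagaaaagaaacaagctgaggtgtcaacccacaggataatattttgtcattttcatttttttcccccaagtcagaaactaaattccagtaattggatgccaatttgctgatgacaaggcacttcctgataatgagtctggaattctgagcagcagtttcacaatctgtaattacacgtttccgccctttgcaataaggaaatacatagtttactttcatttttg
FAS, chr10:88990548-88990797, plus strand: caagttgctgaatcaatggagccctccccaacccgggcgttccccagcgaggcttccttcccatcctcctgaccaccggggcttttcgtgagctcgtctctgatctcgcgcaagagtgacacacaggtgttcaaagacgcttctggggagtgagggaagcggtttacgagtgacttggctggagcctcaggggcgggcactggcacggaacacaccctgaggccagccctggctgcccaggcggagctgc
The TNFSF10 window held 1 interferon-type match, TTTCAGTTTC, which begins at −187 from the start site. The same core matched in 3.02% of 35116 promoters of the same length. The CASP8 window held 1 STAT-type match, TTCCAAGAA, at −200, and it reads as a match on both strands. TTCNNNGAA matched 6.57% of the promoters, and the forkhead letters GTAAACA matched 2.98%. The CASP4 window, the FAS window shown and the windows of the other two starts listed for CASP8 and for FAS held no match, and no window held GTAAACA. A match describes letters in a window and is not a binding site.

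The PC3 libraries held 123140099 to 188226483 counts each and the VCaP libraries 48187047 to 59839211. Levels are given in CPM, counts scaled to a common library size within each line. FOXA1, the siRNA target, stood at 296, 247 and 261 CPM in PC3 NSI and at 165, 184 and 164 in PC3 siFOXA1, and at 458, 468 and 544 CPM in VCaP NSI against 85.2, 73.6 and 83.1 in VCaP siFOXA1. The groups did not overlap in either line, and the log2 change was −0.65 (SE 0.10, edgeR adjusted p = 0.00222) in PC3 and −2.60 (SE 0.09, edgeR adjusted p = 1.84e-07) in VCaP. The identity of the lines was checked on 4 VCaP markers, with KLK3 among them, and 4 PC3 markers. The summed VCaP markers were at 1930 to 2290 CPM in VCaP NSI, 1012 to 1333 in VCaP siFOXA1, 0.357 to 0.464 in PC3 NSI and 0.241 to 0.344 in PC3 siFOXA1. The lower sum in VCaP siFOXA1 came mostly from KLK2, with a mean of 1626 CPM in VCaP NSI and 783 in VCaP siFOXA1. KLK3 and ERG overlapped between these groups, with log2 changes of −0.13 and −0.08, and TMPRSS2 had a log2 change of −0.21. The summed PC3 markers were at 1523 to 1601 CPM in PC3 NSI and 1777 to 1887 in PC3 siFOXA1, and at 38.1 to 49.9 in VCaP NSI and 63.8 to 81.9 in VCaP siFOXA1, where CD44 rose by 2.15 (edgeR adjusted p = 5.18e-07). Leukocyte markers, which would show other cells, summed to 27.2 to 29.6 CPM in PC3 NSI and 45.6 to 51.0 in PC3 siFOXA1, nearly all from CD68 (95.3% of its exon bases shared with another gene), while the other 5 of the 6 were under 1 CPM in both PC3 groups. In VCaP they summed to 1.09 to 1.52 CPM with NSI and 2.78 to 3.39 with siFOXA1, mostly from CD14, which rose by 1.97 (edgeR adjusted p = 2.07e-05). Each of these sums thus moved with the knockdown without overlap, and its part in the change of the members was not tested. Fewer cells of a kind and less RNA per cell cannot be told apart in such bulk libraries.

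CASP10, the less studied of the initiator caspases, was higher with siFOXA1 by a like factor in both lines and had the largest log2 change of the 7 members fitted in VCaP. In PC3 it stood at 4.67, 4.61 and 4.85 CPM with NSI and at 22.0, 17.8 and 21.4 CPM with siFOXA1. In VCaP it stood at 3.14, 2.99 and 2.69 CPM with NSI and at 13.2, 14.4 and 12.8 CPM with siFOXA1. All siFOXA1 libraries lay above all NSI libraries of their line, and the ratio of the means was 4.33 in PC3 and 4.57 in VCaP. The log2 change was 2.11 (SE 0.11) in PC3 and 2.19 (SE 0.10) in VCaP, so the changes differed by 0.10 (SE 0.15) on the log2 scale, less than the SE of that difference. The difference turned to −0.00296 without PC3 NSI replicate 3 and to −0.080 without PC3 siFOXA1 replicate 2. CASP10 lies on chromosome 2 from 202047604 to 202094129 (GRCh37, plus strand), and its exons share no bases with another gene.

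CASP8, the main initiator caspase of the death receptor complex, starts just beyond CASP10 on the same strand, at 202098166, and ends at 202152434. It stood at 71.4, 60.4 and 68.7 CPM in PC3 NSI and at 100.4, 81.9 and 92.3 CPM in PC3 siFOXA1. In VCaP it stood at 15.6, 15.1 and 13.9 CPM with NSI and at 19.2, 19.4 and 18.2 CPM with siFOXA1. The groups did not overlap in either line, but the rise was far smaller than that of its neighbour, with a log2 change of 0.45 (SE 0.11) in PC3 and 0.35 (SE 0.07) in VCaP. Per length of exon, CASP8 was 24.1 ± 1.87 times as abundant as CASP10 in PC3 NSI and 7.63 ± 0.263 times in PC3 siFOXA1 (SD, n = 3). In VCaP the same ratio was 8.61 ± 0.169 with NSI and 2.40 ± 0.0889 with siFOXA1 (SD, n = 3). The excess of CASP8 transcript over CASP10 transcript was thus lower with siFOXA1 in both lines.

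TNFSF10, the ligand gene, differed between the lines both in its level and in its change. It stood at 1.5, 1.47 and 1.45 CPM in PC3 NSI and at 37.3, 35.0 and 32.3 CPM in PC3 siFOXA1, a log2 change of 4.57 (SE 0.11). In VCaP it was already at 17.1, 17.7 and 17.3 CPM with NSI and stood at 24.7, 25.5 and 26.2 CPM with siFOXA1, a log2 change of 0.55 (SE 0.06). The groups did not overlap in either line, and the change in VCaP minus that in PC3 was −3.99 (SE 0.12) on the log2 scale. With siFOXA1 the mean was 34.9 CPM in PC3 and 25.5 CPM in VCaP, the reverse of the order with NSI. These CPM were scaled within each line, and the siFOXA1 groups of the lines were not compared by a test. TNFSF10 lies on chromosome 3 from 172223298 to 172241297, on the minus strand.

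The receptor genes did not move together. FAS stood at 5.20, 5.12 and 4.58 CPM in PC3 NSI and at 11.9, 11.2 and 11.8 CPM in PC3 siFOXA1. In VCaP it stood at 95.1, 107.4 and 91.9 CPM with NSI and at 228, 225 and 213 CPM with siFOXA1. The groups did not overlap, and the log2 changes of 1.23 (SE 0.10) in PC3 and 1.18 (SE 0.08) in VCaP were alike although the levels differed widely between the lines. Their difference of −0.03 (SE 0.12) became 0.031 without VCaP NSI replicate 2.

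TNFRSF10A, the first TRAIL receptor, stood at 32.6, 29.0 and 31.7 CPM in PC3 NSI and at 30.3, 27.3 and 30.7 CPM in PC3 siFOXA1, so the groups overlapped, with a log2 change of −0.08 (SE 0.09). In VCaP it stood at 15.8, 16.2 and 18.1 CPM with NSI and at 19.2, 20.3 and 22.3 CPM with siFOXA1, with no overlap and a log2 change of 0.30 (SE 0.08). TNFRSF10B, the other death-inducing TRAIL receptor, stood at 141.1, 129.1 and 141.5 CPM in PC3 NSI and at 129.5, 125.5 and 124.4 CPM in PC3 siFOXA1, again overlapping, with a log2 change of −0.12 (SE 0.08). In VCaP it stood at 16.4, 16.2 and 18.3 CPM with NSI and at 21.3, 23.4 and 21.6 CPM with siFOXA1, with no overlap and a log2 change of 0.38 (SE 0.07). Both TRAIL receptors were thus slightly higher with siFOXA1 in VCaP. In PC3 their change was under 2 SE in the fit without pairs, while each was lower with siFOXA1 in all 3 pairs of same-numbered libraries. Per length, TNFSF10 transcript was 0.0169 ± 0.00089 of the sum of both receptor transcripts in PC3 NSI and 0.432 ± 0.0271 of it in PC3 siFOXA1, against 0.869 ± 0.0638 and 1.01 ± 0.0236 in VCaP (SD, n = 3). Both receptor genes lie on chromosome 8, TNFRSF10B from 22877646 to 22926692 and TNFRSF10A from 23047965 to 23082639, on the minus strand. Of the exon bases of TNFRSF10A, 8.25% are overlapped on the opposite strand by RP11-1149O23.2, and in PC3, where strand was ignored, reads there cannot be told apart.

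CASP1, whose protein matures interleukin-1 beta, was nearly silent in PC3 NSI, with 17, 30 and 36 counts, and had 866, 663 and 892 counts in PC3 siFOXA1. These are 0.112, 0.218 and 0.194 CPM against 5.22, 5.33 and 5.21 CPM, with no overlap, and the log2 change was 4.90 (SE 0.21). In VCaP 1 count was found in NSI replicate 1 and none in the other 5 libraries. That total lies under the floor of 3 counts over a group, which allows up to 0.0188 CPM in VCaP NSI and 0.0194 CPM in VCaP siFOXA1 by counting error alone. The gene did not pass the filter on low counts in VCaP and no fold is given there. CASP1 lies on chromosome 11 from 104896235 to 104905977, beside CARD16, a near copy of its 5′ part, and counting may have divided fragments between the pair.

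CASP4, the intracellular sensor of bacterial lipopolysaccharide, was present in both lines. It stood at 20.3, 24.3 and 20.7 CPM in PC3 NSI and at 54.5, 60.3 and 59.7 CPM in PC3 siFOXA1, and at 3.06, 2.51 and 2.55 CPM in VCaP NSI and 5.20, 5.47 and 5.29 CPM in VCaP siFOXA1. The groups did not overlap, and the log2 change was 1.42 (SE 0.10) in PC3 and 0.97 (SE 0.11) in VCaP. Both inflammatory caspases were therefore higher with siFOXA1 in PC3, while VCaP had CASP4 transcript without detectable CASP1. CASP4 lies on chromosome 11 from 104813593 to 104840163, on the minus strand like CASP1.

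**Figure D1:**
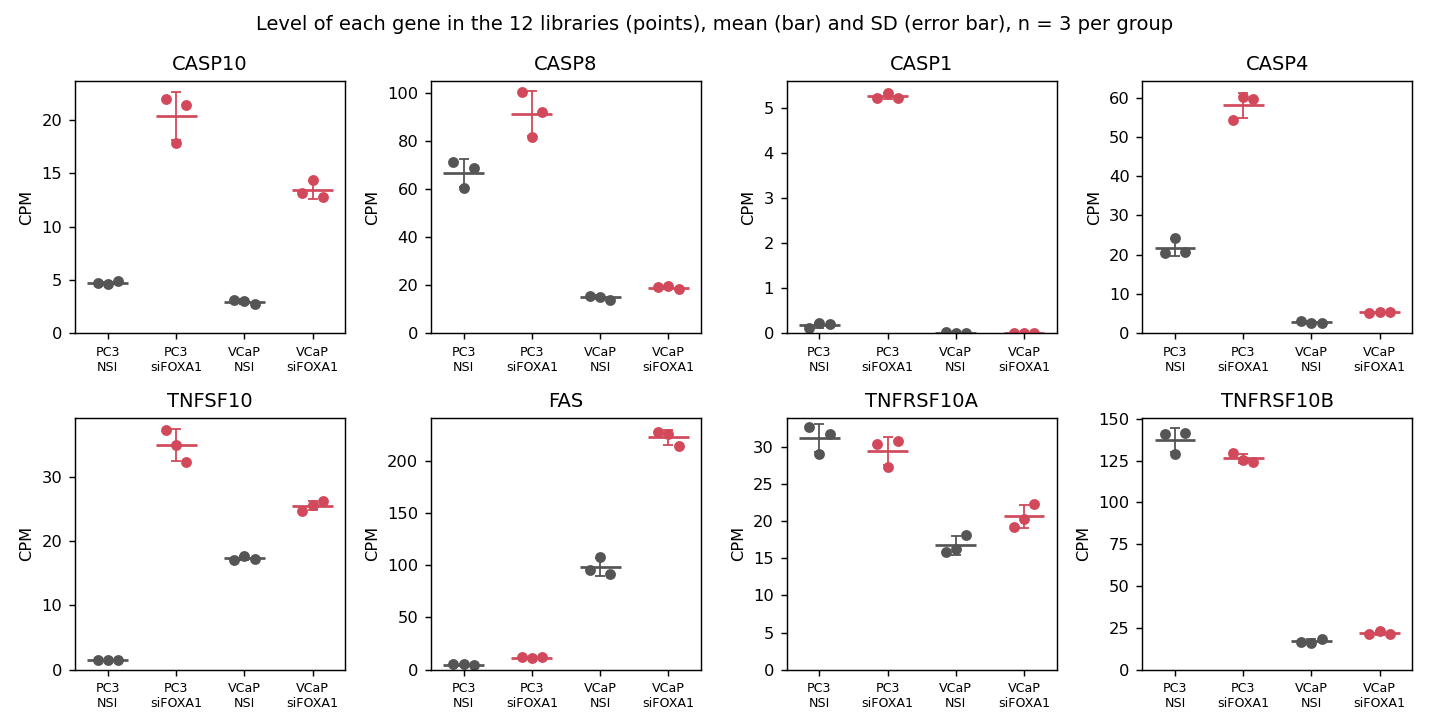
Level of the 8 genes in CPM (y axis, linear, from 0, a separate scale for each gene) in the 3 libraries of each group (points), with the mean (bar) and SD (error bar). CASP10 and FAS are higher with siFOXA1 in both lines, TNFSF10 is below 2 CPM in PC3 NSI and above 30 CPM in PC3 siFOXA1, and CASP1 is near 0 in VCaP.

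By the threshold used for all genes (edgeR adjusted p under 0.05), 6 of the 8 members were higher with siFOXA1 in PC3, where 15% of all genes tested were. In VCaP 7 of the 7 members tested were higher, where 22.5% of all genes were. In 6 members in PC3 and 7 in VCaP every siFOXA1 library lay above every NSI library, as in 23.9% and 27.9% of all genes. CASP10, CASP8, CASP4, TNFSF10 and FAS were higher by that threshold in both lines, as were 4.97% of the genes tested in both, while 5.72% were lower in both. These comparisons chose the members, and nothing is read from the counts. The median log2 change of the members was 1.32 in PC3 and 0.55 in VCaP, against 0.02 over all genes tested in each line.

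**Figure D2:**
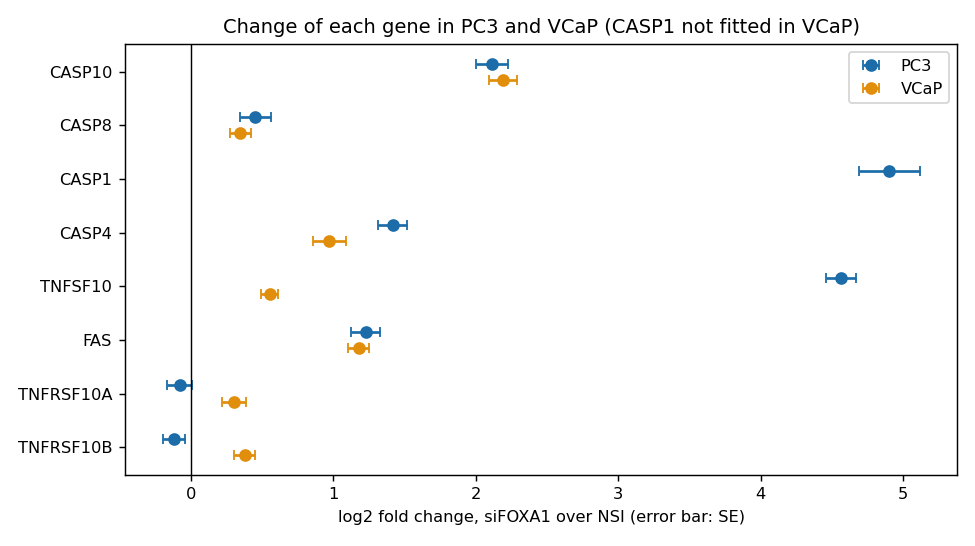
Log2 fold change of siFOXA1 over NSI (x axis) with its SE for each gene in PC3 and VCaP. CASP10 and FAS have like values in both lines, TNFSF10 stands at 4.57 in PC3 and 0.55 in VCaP, and TNFRSF10A and TNFRSF10B lie near 0 in PC3.

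The levels without knockdown were compared between the lines, a comparison that shares its NSI libraries with those above but did not choose the members. All 8 members differed (edgeR adjusted p under 0.05), 2 higher and 6 lower in VCaP, but 87% of all 28132 genes tested did too, 42.4% higher and 44.6% lower, so a difference between these lines is the rule. FAS was higher in VCaP by 4.29 on the log2 scale (SE 0.11, edgeR adjusted p = 2.55e-11) and TNFSF10 by 3.54 (SE 0.11, edgeR adjusted p = 1.06e-10). TNFRSF10B had a log2 difference of −3.03 (SE 0.11), CASP4 of −3.02 (SE 0.12) and CASP8 of −2.19 (SE 0.11). The smallest differences were those of TNFRSF10A, −0.91 (SE 0.10, edgeR adjusted p = 5.52e-06), and CASP10, −0.70 (SE 0.14, edgeR adjusted p = 0.000491). Upper-quartile scaling moved the median of all genes in this comparison by 0.29, and the CASP10 difference was then −0.41, its value nearest 0 under the alternatives. For CASP1, the 83 counts of PC3 NSI against 1 of VCaP NSI gave a ratio of 27.3 per count sequenced (exact 95% interval 4.77 to 1092, counting error only). CASP1 was not tested without PC3 NSI replicate 2 or 3, where it did not pass the filter on low counts, and 7 members then remained called.

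Per length of exon, the order of the members with NSI in PC3 was TNFRSF10B at 33.1 CPM per kb, CASP8 at 17.0, TNFRSF10A at 11.5, CASP4 at 9.64, FAS at 1.92, TNFSF10 at 0.753, CASP10 at 0.705 and CASP1 at 0.0655. In that order TNFRSF10A and CASP4 overlapped between libraries and the other neighbours did not. In VCaP NSI the order was FAS at 38.0 CPM per kb, TNFSF10 at 8.88, TNFRSF10A at 6.16, TNFRSF10B at 4.09, CASP8 at 3.78, CASP4 at 1.20, CASP10 at 0.440 and CASP1 last, and only TNFRSF10B and CASP8 overlapped. Among the receptor genes that are members, the most abundant transcript was thus TNFRSF10B in PC3 and FAS in VCaP. Outside the members, the death receptor genes TNFRSF1A, at 55.1 CPM per kb, and TNFRSF21, at 53.6, lay above TNFRSF10B in PC3 NSI. With siFOXA1 the VCaP order was the same, led by FAS at 86.0 CPM per kb. In PC3 siFOXA1 TNFRSF10B remained first at 30.5 CPM per kb, followed by CASP4 at 25.7 and CASP8 at 23.3, which overlapped, then TNFSF10 at 17.9, TNFRSF10A at 10.9, FAS at 4.51, CASP10 at 3.05 and CASP1 at 1.97. TNFSF10 and CASP4 each moved up by 2 places there. CASP10 stayed the second lowest member in all 4 groups.

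**Figure D3:**
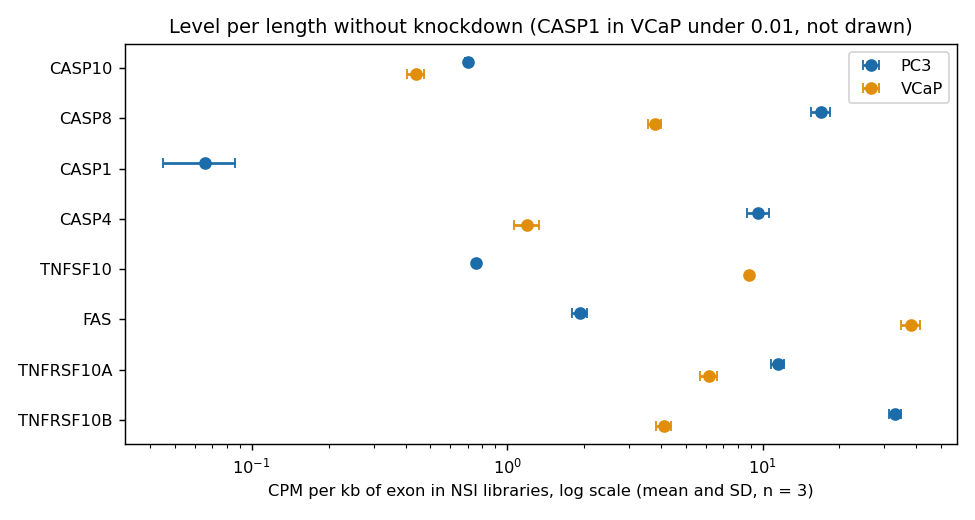
Level per kb of exon with NSI (x axis, CPM per kb, log scale; mean and SD, n = 3) for the 8 genes in both lines. FAS and TNFSF10 lie to the right in VCaP, and the 5 other members drawn in both lines lie to the right in PC3.

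Other genes of the same pathways were counted on 7 lists of 100 genes that leave the members out. In PC3, 91 could be tested, of which 28 were higher and 13 lower with siFOXA1 (edgeR adjusted p under 0.05), 45.1% called against 27% of all genes. In VCaP, 74 could be tested, of which 22 were higher and 26 lower, 64.9% called against 45.8% of all genes. The median log2 change over the lists was 0.14 in PC3 and −0.02 in VCaP. To set beside the counts by list below, 15% of all genes tested were higher and 12.1% lower in PC3. In VCaP 22.5% were higher and 23.3% lower. The effect differed between the lines for 33 of 89 genes tested, 37.1% against 22.2% of all genes, and 19 of the 33 had the lower change in VCaP. Of all genes called in that comparison, 50.7% were higher in VCaP, and 40.5% when libraries were scaled by their totals alone.

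CASP9, the initiator caspase of the mitochondrial route, stood at 4.47, 4.10 and 3.91 CPM in VCaP NSI and at 5.86, 5.65 and 6.30 CPM in VCaP siFOXA1. The groups did not overlap there, and the log2 change was 0.51 (SE 0.10, edgeR adjusted p = 0.00265). In PC3, where it had a log2 change of 0.07, it did not pass the test.

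Among other death receptors, decoys and ligands, 3 of 9 rose and none fell in PC3, and 2 of 5 rose and none fell in VCaP, and the list held 1 call in PC3 without NSI replicate 3 or any 1 siFOXA1 replicate, and 1 in VCaP by DESeq2. The decoy receptor gene TNFRSF6B rose by 1.73 (SE 0.25, edgeR adjusted p = 0.00159) in PC3, from 11.2, 13.4 and 10.8 CPM to 39.0, 54.1 and 24.9 CPM. Of its exon bases, 90.4% are shared on the same strand with the readthrough gene RTEL1-TNFRSF6B, so fragments were divided between the pair. The other calls, named after their values were seen because they lie under 1 CPM, were FASLG and TNFRSF10C in PC3 and TNFRSF10C and TNFRSF1A in VCaP. TNFRSF10C, a TRAIL decoy receptor gene in the same cluster as TNFRSF10A and TNFRSF10B, had a log2 change of 1.16 in PC3 and 1.03 in VCaP at levels of at most 0.533 CPM, and 42.7% of its exon bases are shared on the same strand with 2 other genes. TNFRSF1A, the main TNF receptor gene, stood at 153 to 171 CPM in all PC3 libraries but at 0.0174 to 0.0770 in VCaP NSI and 0.437 to 0.556 in VCaP siFOXA1.

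Among adaptors and regulators of the death complex, 7 of 17 rose and 1 fell in PC3, and 4 of 17 rose and 5 fell in VCaP. CFLAR, the inhibitor gene beside CASP10, rose in both lines, by 0.79 (SE 0.11, edgeR adjusted p = 0.00121) in PC3 and 0.37 (SE 0.07, edgeR adjusted p = 0.00303) in VCaP. Its libraries ran from 56.5 to 68.1 CPM and then from 97.2 to 117 in PC3, and from 82.0 to 93.2 and then from 106 to 120 in VCaP, with no overlap. CYLD, a deubiquitinase of the receptor complex, rose by 0.49 in PC3 and 0.43 in VCaP. MLKL, the effector of necroptosis, rose by 0.79 in PC3 (edgeR adjusted p = 0.000275) and had a log2 change of −0.22 in VCaP (edgeR adjusted p = 0.26). RIPK3, on the same list, held only 2 counts in PC3 NSI and 0 in PC3 siFOXA1 and was not tested. FADD, the adaptor that joins receptors to CASP8 and CASP10, did not pass in either line, with log2 changes of −0.10 and 0.09, and 53% of its exon bases are overlapped on the opposite strand. RBCK1 rose by 0.39 in VCaP and by 0.43 in PC3, where the call (edgeR adjusted p = 0.0361) was lost under 5 of 13 alternatives, with an adjusted p of up to 0.128 without siFOXA1 replicate 1. In VCaP TRADD rose by 0.65, while FAIM and NOL3 had log2 changes of −0.79 and −0.51.

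Among the IAP family and its antagonists, which bind or release caspases, 3 of 10 rose and 2 fell in PC3, and 4 of 8 rose and 2 fell in VCaP. BIRC3, a ubiquitin ligase of the TNF receptor complex, rose from 1.55, 1.37 and 1.40 CPM to 4.27, 4.1 and 4.0 in PC3 and from 11.6, 13.0 and 11 CPM to 48.3, 49.2 and 48.5 in VCaP. Its log2 change was 1.51 (SE 0.12, edgeR adjusted p = 6.89e-05) in PC3 and 2.04 (SE 0.07, edgeR adjusted p = 1.72e-07) in VCaP. XAF1, an XIAP-associated factor known as an interferon target, rose by 4.0 (SE 0.23, edgeR adjusted p = 1.31e-05) in PC3, from 5.89, 3.30 and 6.44 CPM to 86.9, 79.8 and 84.4, and was under 0.1 CPM in VCaP. Of its exon bases, 69.9% are overlapped on the opposite strand by RP11-609D21.3, which the PC3 counts cannot separate. XIAP and NAIP rose by 0.74 and 0.79 in VCaP. BIRC5, a mitotic member of the family, fell in both lines, by 0.78 on the log2 scale in PC3 and by 0.80 in VCaP, and 31.5% of its exon bases are overlapped on the opposite strand.

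Among the BCL2 family and the apoptosome, which carry the mitochondrial route, 4 of 18 rose and 4 fell in PC3. In VCaP 3 of 17 rose and 12 fell, and 9 of the list were called without siFOXA1 replicate 2. BID, the protein that CASP8 cleaves to reach the mitochondria, fell in both lines, with log2 changes of −0.84 (SE 0.15, edgeR adjusted p = 0.00510) and −0.64 (SE 0.10, edgeR adjusted p = 0.000654). CYCS, cytochrome c, also fell in both lines, with log2 changes of −0.47 (edgeR adjusted p = 0.00789) in PC3 and −0.50 (edgeR adjusted p = 0.000409) in VCaP. In PC3 the survival genes BCL2A1 and BCL2L1 rose by 1.08 and 0.63, and PMAIP1, a killer gene of the family, by 0.47, with 42.8% of the exon bases of BCL2L1 overlapped by the opposite-strand gene ABALON. In VCaP BMF, another killer gene, rose by 1.13 (SE 0.08, edgeR adjusted p = 4.75e-06), while BCL2 and BAK1 had log2 changes of −0.82 and −0.51.

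Of 21 inflammasome and pyroptosis genes, the partners of CASP1 and CASP4, 17 could be tested in PC3 and 7 in VCaP. The filter on low counts admits lower levels in the deeper PC3 libraries, so these numbers do not compare expression alone. In PC3 8 rose and 1 fell, with a median log2 change of 0.48, and in VCaP 3 rose and 1 fell, with a median of 0.10. AIM2, a sensor of cytosolic DNA, rose by 5.20 (SE 0.26, edgeR adjusted p = 5.08e-06) in PC3, from 0.119, 0.102 and 0.0538 CPM to 3.19, 3.69 and 3.10, and had no counts in VCaP. PYCARD, on the same list, held only 7 counts in PC3 NSI and 5 in PC3 siFOXA1 and was not tested. IL1B, the substrate of CASP1, rose by 1.91 (SE 0.09, edgeR adjusted p = 3.58e-06) in PC3, from 41.7, 45.6 and 40.0 CPM to 159, 162 and 155, and was at most 0.0199 CPM in VCaP. NLRP1 rose in both lines, by 1.55 in PC3 and by 1.23 (edgeR adjusted p = 0.00152) in VCaP. Its VCaP means were only 0.356 CPM with NSI and 0.841 with siFOXA1, and the alternatives were not run for that value. CARD16 rose by 3.26 in PC3 (SE 0.37, edgeR adjusted p = 0.000493), at 0.790 to 1.45 CPM with siFOXA1. In VCaP GSDMC, a gasdermin gene, rose by 5.37 (SE 0.20, edgeR adjusted p = 1.98e-07), from 0.231, 0.179 and 0.174 CPM to 9.73, 7.24 and 7.5. It rose in PC3 too, by 3.23 (SE 0.48, edgeR adjusted p = 0.00190), but only from a mean of 0.0460 to 0.427 CPM.

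Of 15 p53 target genes, a family in which FAS and the TRAIL receptors are also counted, 2 rose and 4 fell in PC3 and 4 rose and 4 fell in VCaP, and 3 were called in PC3 without siFOXA1 replicate 1. The share called was 40% in PC3 and 53.3% in VCaP, against 27% and 45.8% of all genes. PC3 lacks functional p53. CDKN1A, the best known target, rose by 1.64 (SE 0.16, edgeR adjusted p = 3.92e-05) in VCaP and had a log2 change of 0.24 in PC3 (edgeR adjusted p = 0.24). TP53INP1 had a log2 change of −1.46 in VCaP, and GDF15 of −1.13 in PC3 and 0.47 in VCaP. Interferon-stimulated genes, given for reference because TNFSF10, CASP1, CASP4 and XAF1 are known interferon targets, rose in 15 of 15 cases in PC3, with a median log2 change of 3.16. In VCaP 7 of 14 rose and 2 fell, with a median of 0.25. For this list the share called was 100% in PC3 and 64.3% in VCaP, against the same 27% and 45.8% of all genes. The part of these genes' change in that of the members was not tested.

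**Figure D4:**
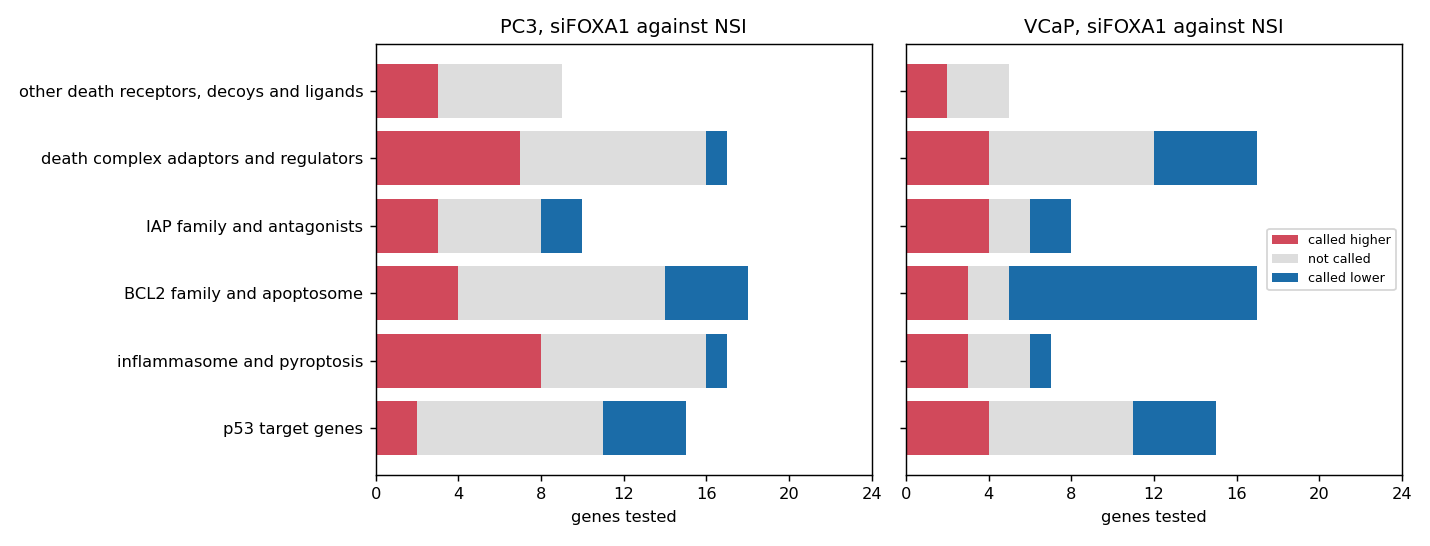
Genes tested on each of 6 pathway lists (x axis, count) that were called higher, called lower or not called (edgeR adjusted p under 0.05) with siFOXA1 in PC3 and VCaP. The inflammasome list has 8 of 17 higher in PC3, and the BCL2 family list has 12 of 17 lower in VCaP.

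Genes lying within 250 kb of a member were compared to see whether the changes were limited to the member or extended along the locus. Of 92 such genes, 47 could be tested in PC3, of which 22 were higher and 2 lower, or 51.1% against 27% of all genes. In VCaP 35 could be tested, of which 15 were higher and 4 lower, or 54.3% against 45.8%. Around FAS 5 of 6 were higher in PC3 and 7 of 7 in VCaP, with none lower. ACTA2, the smooth muscle actin gene beside FAS, rose by 1.69 (SE 0.21, edgeR adjusted p = 0.000681) in PC3 and 0.81 (edgeR adjusted p = 0.00135) in VCaP. The PC3 means of ACTA2 were low, at 0.489 CPM with NSI and 1.57 with siFOXA1. STAMBPL1, which encodes a deubiquitinase, rose by 0.46 in PC3 and 0.98 (SE 0.07, edgeR adjusted p = 5.54e-06) in VCaP. ACTA2 lies within the span of STAMBPL1, on the opposite strand. In PC3, where strand was ignored, reads from any bases that these genes share cannot be told apart. In VCaP the noncoding RP11-399O19.9, which starts just past the end of FAS on the same strand, rose by 1.32, and RP11-399O19.5, antisense to ACTA2, by 1.27. Reads beyond the annotated end of FAS cannot be told apart from RP11-399O19.9.

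Around CASP10 5 of 13 neighbours were higher and 1 lower in PC3, and 5 of 12 higher and 1 lower in VCaP. ORC2, a subunit of the origin recognition complex, had a log2 change of −0.58 (SE 0.09, edgeR adjusted p = 0.00232) in PC3 and 0.56 in VCaP. NDUFB3, between ORC2 and CFLAR, and TRAK2, beyond CASP8, did not pass in either line. AC007283.5, a noncoding gene that overlaps CFLAR, rose by 1.02 in PC3. No neighbour tested within 250 kb of CASP10 had a log2 change as large as that of CASP10 in either line. Near the TRAIL receptors LOXL2, a lysyl oxidase gene, rose by 1.01 (edgeR adjusted p = 9.40e-05) in PC3 and had a log2 change of −0.41 in VCaP, where CHMP7 had −0.67. ECT2, a mitotic gene near TNFSF10, fell in both lines, by 0.49 and 0.92 on the log2 scale.

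**Figure D5:**
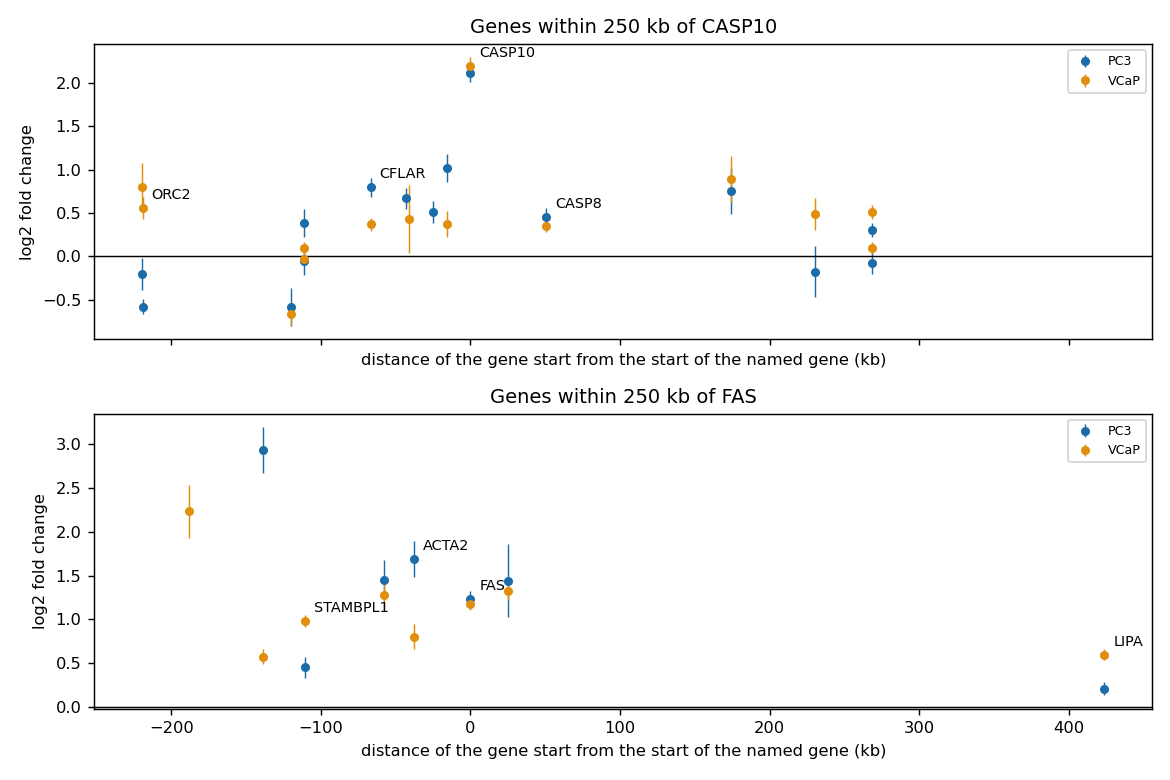
Log2 fold change of siFOXA1 over NSI with its SE (y axis) against the distance of each gene start from the start of CASP10 (upper panel) or FAS (lower panel) in kb. CASP10 stands above its neighbours at 2.11 and 2.19, while genes around FAS are above 0 in both lines.

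The genes whose levels followed CASP10 most closely were ranked by Pearson r of log2 CPM over the 12 libraries, as deviations from the mean of the line, among 11660 protein-coding genes. NHLRC3 had r = 0.997, KITLG, the ligand of the KIT receptor, 0.996, TRIM38 0.996 and DNAJB4 0.995. With 2 conditions per line such values mostly record a like split between NSI and siFOXA1 in both lines, and are a description. KITLG had log2 changes of 1.91 in PC3 and 1.94 in VCaP. Among the members FAS came closest, with r = 0.993 and 8 genes ranked above it when CASP10 itself is counted. It was followed by CASP4 at 0.958, CASP8 at 0.929, TNFSF10 at 0.786, CASP1 at 0.696, TNFRSF10B at 0.431 and TNFRSF10A at 0.407.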

How the data were processed

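RNA of 12 libraries was measured. Per the submitters' processing notes STAR 2.7.3a and Subread 2.0.0 (featureCounts) on GRCh37 were used. Per the file headers, the deposited estimated counts sum exons by GENCODE v28lift37 basic gene, count pairs with both ends mapped, and divide fragments that map to several places or genes. Strand was ignored in counting PC3, and the reverse strand was used for VCaP, per the file headers. The deposited counts were not normalized, and 54.8% to 75.2% of the values above 0 were not whole. They were rounded.

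Each line was fitted alone with edgeR 4.0.16 (R 4.3.3): filterByExpr, TMM factors, quasi-likelihood test, two-sided, Benjamini-Hochberg adjustment over all genes tested, threshold 0.05. The difference between lines was the interaction over all 12 libraries, and the NSI libraries of both lines were fitted together. CPM used the TMM factors of the line, and SE is the size of the log2 change over the square root of F. The scripts recovered known changes in simulated counts. These changes were set only in well-counted genes, with the same spread for every gene and no pairs. That check therefore does not cover genes of low count or the pairing in PC3. Precision was set by a biological coefficient of variation of 15.0% (PC3) and 9.90% (VCaP). Replicates differed by more than sampling noise (chi-square per degree of freedom 11.0 to 159). Length is the summed exon length of a gene.

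The members and the lists were chosen with earlier results of these data known. From each list and line, up to 3 called genes of each direction with a mean of at least 1 CPM were taken by size, and from the interaction up to 2 of each sign, plus CFLAR and CARD16. A few genes and markers so chosen are left out of the text. The VCaP values of CD14, CD44 and CYCS and the PC3 values of RBCK1 and GSDMC were added after their values were seen. The VCaP value of NLRP1 also lies outside the rule. Neighbours of at least 1 CPM were taken likewise, 3 of each direction. Replicate numbers in the titles are shared by NSI and siFOXA1. Deviations of same-numbered libraries correlated at 0.45, 0.59 and 0.25 in PC3, so the numbers were taken to pair there, by the data and not by a label. The p-values, SEs and calls given for PC3 nevertheless come from the fit without a replicate block, which leaves this pairing out. With the replicate block 11297 genes were called in PC3 against 7149 without it. A gene said not to pass in PC3 may therefore pass with the block. Alternatives were other scalings, DESeq2 1.42.0, no filter, the block and each library left out, and TMM factors taken before the filter, which was added after seeing the data.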

Additional observations from a re-analysis of the deposited data

Results flagged for a closer look

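The change after FOXA1 knockdown differed between VCaP and PC3 by the interaction test (edgeR adjusted p under 0.05) for 18 of the pathway genes named here, given as the log2 change in VCaP minus that in PC3. Among caspases the difference was 0.47 for CASP9. Among receptors it was 3.53 for TNFRSF1A and −1.91 for TNFRSF6B. Among adaptors and IAP genes it was −0.98 for MLKL, −0.62 for FAIM, 1.03 for NAIP and 0.54 for BIRC3. In the BCL2 family it was 1.39 for BMF, 1.26 for BBC3, −0.98 for BCL2 and −0.74 for APAF1. Among inflammasome genes it was 2.18 for GSDMC, 0.55 for DPP8 and −0.83 for CARD8. Among p53 targets it was 1.62 for GDF15, 1.42 for CDKN1A, −1.63 for TP53INP1 and −1.0 for PHLDA3. The calls of CASP9, DPP8 and PHLDA3 were lost under 12, 9 and 9 of 20 alternatives, and those of FAIM, GSDMC and TNFRSF6B without 1 library each (VCaP siFOXA1 replicate 2, PC3 NSI replicate 2 and VCaP NSI replicate 2). The line cannot be told apart here from kit, strand use, medium, dose and the depth of the knockdown. FOXA1 itself had a log2 change of −0.65 in PC3 and −2.60 in VCaP. That difference was −1.93 (SE 0.15, edgeR adjusted p = 3.12e-07).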

How the results depend on the processing

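Over the alternatives, 411 log2 values of the members moved by less than the SD between replicates (or, between the NSI groups, kept their call), 5 moved by more and 3 changed sign. Those 3 are differences between the lines near 0: that of CASP10, −0.00296 without PC3 NSI replicate 3 and −0.080 without PC3 siFOXA1 replicate 2, and that of FAS, 0.031 without VCaP NSI replicate 2. With 1 library left out these differences ran from −0.080 to 0.14 for CASP10 and from −0.15 to 0.031 for FAS. Of 70 calls of pathway genes that the rule named, 54 held under every alternative run and 16 were lost under at least 1, with no change of sign. The count of all genes called in PC3, 7149, became 11297 with the replicate block. With 1 library left out it ran from 3945 (without siFOXA1 replicate 1) to 7592, and was 4602 without NSI replicate 3. In VCaP the replicate numbers were not taken to pair the libraries, with same-number correlations of 0.11, 0.03 and 0.39. Pairing in VCaP is not excluded, since these correlations are a description and pairing was not tested in either line. The replicate block there gave 11482 calls against 10501, with 49 pathway genes against 48. In PC3 the block gave 58 pathway genes against 41 and 32 neighbours against 24, and for the difference between the lines it gave 8811 genes against 6760. The cause of these shifts was not tested. The greater depth of PC3 did not give a smaller spread, and under about 1 CPM the VCaP libraries hold few counts.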
